A study of Arabidopsis thaliana with 48 samples.

Results

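Tailed A1 ends are 3′ ends of 18S rRNA precursors that stop 8 to 13 nt past the D site, the mature 3′ end of 18S rRNA, and carry 1 to 10 nucleotides not encoded by the rDNA. They were taken as the 6 end positions from +8 to +13 (1899 to 1904 of the authors' 45S rDNA reference, in which the D site was position 1891 in all 48 libraries) with each of 10 tail lengths. This gave 60 of the 330 combinations of position and tail length that were counted in each library. Between 477 and 77754 reads of a library were tailed A1 ends, 1022179 over all libraries. Of the 60 combinations, 29 were above zero in every library, and 275 of the 2880 single values were zero.

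The libraries were made by 18S-ENDseq, in which rRNA is circularised and the junction of its 5′ and 3′ ends is sequenced, from 18-day-old Arabidopsis seedlings of the Col-0 background. Plants were wild type (WT), carried hot3-2 (a T-DNA allele of HOT3), carried both dcl2-1 and dcl4-2 (dcl2 dcl4), or carried all 3 alleles (hot3-2 dcl2 dcl4, here the combined mutant). RNA came from the whole lysate before the gradient (total), from the light fractions of a sucrose gradient (nonpolysome) or from its heavy fractions (polysome), with 4 libraries in each of the 12 groups. Libraries held 1815545 to 6468532 reads, and all were kept. The study calls the replicates of total and nonpolysome RNA from WT, hot3-2 and the combined mutant biological. The labels do not say what a replicate was in the remaining groups, where the p values may measure technical spread only.

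HOT3 is the translation initiation factor eIF5B1, which joins the ribosomal subunits. The last step of 18S rRNA maturation is cleavage at the D site by the endonuclease NOB1, and precursors that still carry part of ITS1 are its substrates. Nucleotides added to rRNA precursors by noncanonical poly(A) polymerases are known to mark them for the exosome. DCL2 and DCL4 belong to the Dicer-like family and cut double-stranded RNA, rRNA-derived duplexes among it, into small interfering RNAs.

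The template bases behind each end decide what can be read as a tail, so they are shown first. In the reference genome (RefSeq, TAIR10.1) the last 6 bases of 18S rRNA and the first 24 bases of ITS1 lie on the plus strand at chr2:5508-5537 behind the 18S rRNA gene AT2G01010 (chr2:3706-5513), with the A1 positions at chr2:5521-5526. The same 30 bases follow the second annotated copy, AT3G41768 (chr3:14197677-14199484), at chr3:14199479-14199508. The reads were not assigned to either copy. The A1 positions are in capitals:
18S end and ITS1 start: tcattgtcgatacCTGTCCaaaacagaacg
The ITS1 part of a molecule that ends at +8, where tails are not followed by template A, or at +12, where they soon are, reads as follows, with the A1 bases again in capitals:
ITS1 to +8: tcgatacC
ITS1 to +12: tcgatacCTGTC
A run of 4 template adenosines (+14 to +17) follows the last A1 position. An added adenosine behind +13 therefore cannot be told from an end at +14. Behind +12, +11 and +10, a tail of A would be read as template once 3, 5 and 7 nt long, if each matching base scores 1 and each mismatch -1. At +8 and +9 no tail of up to 10 A would be. Which bases the tails consist of was not analysed here.

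Loss of HOT3 was first compared as the level of tailed A1 ends, that is, tailed reads from +8 to +13 as a percentage of the untailed D-site reads of the same library. Tailed A1 ends were 16.98-fold more abundant in hot3-2 than in WT in total extract, and between 16.5- and 21.7-fold more abundant over all 6 comparisons of a HOT3 mutant with its control. In total extract the 4 WT libraries had 0.0805%, 0.0762%, 0.0872% and 0.0927%. The 4 hot3-2 libraries had 1.32%, 1.21%, 1.63% and 1.56%. The lowest hot3-2 library was far above the highest WT library, and the log2 difference of the means was 4.09 (exact two-sided permutation test, 4 against 4 libraries, p = 0.0286, adjusted p = 0.0286 over 6 comparisons, the smallest this design allows).

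In the nonpolysome fraction WT had 0.199%, 0.122%, 0.231% and 0.134%. The hot3-2 libraries had 3.02%, 2.28%, 3.57% and 2.95% (log2 difference 4.11, exact permutation p = 0.0286, adjusted p = 0.0286). In the polysome fraction WT had 0.0236%, 0.0337%, 0.0201% and 0.0311%, and hot3-2 had 0.505%, 0.543%, 0.611% and 0.697% (log2 difference 4.44, exact permutation p = 0.0286, adjusted p = 0.0286). No WT library overlapped a hot3-2 library in any fraction. Against dcl2 dcl4, the combined mutant was higher by 4.07 on the log2 scale in total, 4.05 in nonpolysome and 4.37 in polysome, with the same exact permutation p of 0.0286 in each (adjusted p = 0.0286) and no overlap. Since the level is relative to D-site reads, fewer mature ends and more precursor ends cannot be told apart, and in these bulk extracts neither can more cells with such ends and more ends per cell.

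**Figure D1:**
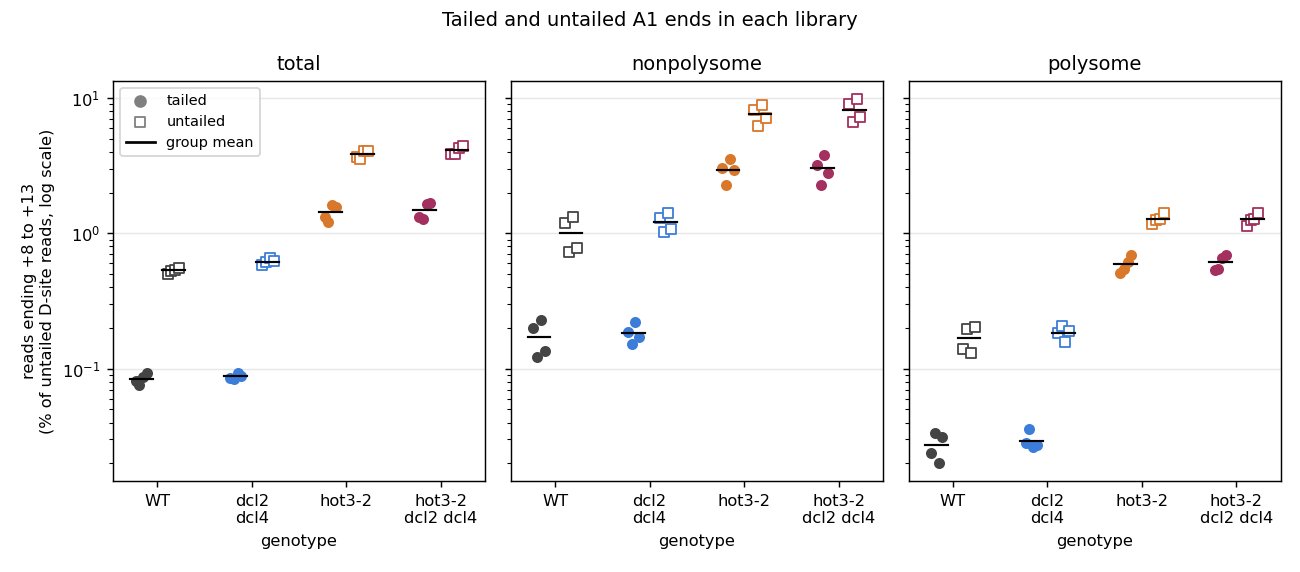
Reads ending at +8 to +13 as a percentage of untailed D-site reads (log axis), with tailed reads as filled circles, untailed reads as open squares, 1 symbol per library and the group mean as a black line. Tailed ends of the 4 hot3-2 total libraries lie between 1.21% and 1.63%, against 0.0762% to 0.0927% in WT, and the gap between tailed and untailed ends is narrower in both hot3-2 genotypes.

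Untailed ends at the same positions rose less. Their mean level went from 0.532% to 3.83% in total (7.21-fold), from 1.01% to 7.58% in nonpolysome (7.54-fold) and from 0.168% to 1.28% in polysome (7.61-fold) between WT and hot3-2. The tailed share, tailed reads per 100 A1 reads of either kind, does not depend on the D-site reads. In total extract the share was 13.8%, 12.6%, 13.99% and 14.3% in the 4 WT libraries and 26.3%, 25.4%, 28.6% and 27.9% in the 4 hot3-2 libraries. In nonpolysome it was 14.3%, 14.3%, 15.0% and 14.6% against 27.2%, 26.7%, 28.8% and 29.2%. In polysome it was 14.5%, 14.6%, 13.4% and 13.2% against 30.3%, 30.2%, 32.2% and 33.2%. The share was close to even among the WT libraries, and every hot3-2 library was above all of them.

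The share rose by 13.4 percentage points in total and in nonpolysome and by 17.6 points in polysome (exact permutation p = 0.0286 and adjusted p = 0.0286 in each). The combined mutant was above dcl2 dcl4 by 13.9, 13.7 and 18.6 points in the same order of fractions, with the same exact permutation p of 0.0286 (adjusted p = 0.0286). In polysome the rise over WT was 15.7 points within replicates 1 and 2 and 19.4 points within replicates 3 and 4, so that its size, not its direction, moved with the replicate number. Counting error was small beside these differences: the 95% Wilson interval of a library's share had a half-width of 0.164 to 1.12 points. That interval covers counting error only, since PCR reads without molecular identifiers are not independent molecules. The pooled share also depends on how A1 reads spread over the 6 positions, which differed between genotypes. In total extract the share went from 14.2% in WT to 18.3% in hot3-2 at +8, and from 18.9% to 24.9% at +9. It went from 26.7% to 32.3% at +10, 25.2% to 42.4% at +11, 13.6% to 26.1% at +12 and 0.629% to 1.81% at +13. How much of the pooled rise follows from that spread was not tested.

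Single A1 positions were fitted with edgeR's quasi-likelihood test on a table of tailed sums and untailed counts of each position, with D-site reads as the library size and Benjamini-Hochberg adjustment over all 59 features. Tailed reads were higher at all 6 A1 positions in hot3-2 than in WT, in all 3 fractions. Most of the table moved the same way: 84.7% of features were called higher in total, 89.8% in nonpolysome and 76.3% in polysome, so the count of 6 of 6 is not particular to A1. The same held for the combined mutant against dcl2 dcl4, with 6 of 6 positions higher beside 79.7%, 88.1% and 79.7% of all features. Sizes differed along the window more than calls did. The median log2 fold change was 4.01 over the 6 tailed A1 positions and 2.92 over all 59 features for hot3-2 against WT in total. The same medians were 4.21 and 3.21 in nonpolysome. In polysome they were 4.06 and 2.24.

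The D-proximal pair +8 and +9 changed most. At +9, tailed reads in total extract were 0.00406% ± 0.000571 of D-site reads in WT and 0.168% ± 0.0244 in hot3-2 (SD, n = 4), a log2 fold change of 5.37 (SE 0.16, edgeR adjusted p = 4.98e-10). In polysome the levels at +9 were 0.00213% ± 0.000552 and 0.142% ± 0.0203, a log2 fold change of 6.05 (SE 0.28, edgeR adjusted p = 3.65e-22). At +8 the log2 fold change lay between 5.09 and 5.78 over the 6 comparisons of a HOT3 mutant with its control. At +9, the WT polysome libraries had 0.00195%, 0.00290%, 0.00160% and 0.00207%, against 0.126%, 0.124%, 0.155% and 0.164% in hot3-2, without overlap. Positions +8 and +9 stood above +10 to +13 in each of these comparisons.

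The largest amounts in total and nonpolysome were further out, at +11 and +12. At +11 tailed reads went from 0.0321% ± 0.00269 to 0.571% ± 0.0858 in total (log2 fold change 4.15, SE 0.14, edgeR adjusted p = 6.50e-10). The 4 WT total libraries lay between 0.0289% and 0.0352% and the 4 hot3-2 libraries between 0.475% and 0.656%. In nonpolysome they went from 0.0652% ± 0.0201 to 1.27% ± 0.257 (log2 fold change 4.29, SE 0.28, edgeR adjusted p = 5.42e-08). At +12 the total level went from 0.0348% ± 0.00406 to 0.407% ± 0.0505 (log2 fold change 3.55, SE 0.13, edgeR adjusted p = 1.56e-09). In total and nonpolysome hot3-2 libraries, +11 and +12 held most of the tailed A1 reads, whereas in hot3-2 polysome +9 (0.142%) lay above +12 (0.115%). In the polysome of the combined mutant +9 (0.173% ± 0.0319) was level with +11 (0.169% ± 0.0243).

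At +10 the log2 fold change of tailed reads ranged from 3.85 to 4.13 over the 6 comparisons and at +13 from 2.59 to 3.75. Both ends of the range at +13 come from polysome and rest on few control reads. There +13 held 0.816% ± 0.210 (WT) and 1.77% ± 0.742 (dcl2 dcl4) of 477 to 1443 tailed A1 reads per library. The position +13, behind which an added A reads as template, held only 0.00870% ± 0.00129 in hot3-2 total. Just outside the window, tailed ends at +7 were at 0.153% and those at +14 at 0.00770% of D-site reads in hot3-2 total.

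The fitted log2 fold change was larger for tailed than for untailed reads at every A1 position in all 6 comparisons, set side by side without a test. At +8 in nonpolysome the excess was only 0.11 (hot3-2) and 0.01 (combined mutant), and the tailed share there was not called different. The excess was 0.01 to 0.97 at +8, 0.36 to 0.94 at +9 and 0.40 to 0.91 at +10. It was 1.12 to 1.46 at +11, 1.13 to 1.39 at +12 and 1.41 to 2.43 at +13. Both ends of the range at +13 come from polysome, where the controls had few reads. In total and nonpolysome the excess at +13 was 1.52 to 1.76. The excess was thus larger in the outer than in the inner part of the window, while the rise of untailed reads ran the other way, from 4.70 to 5.09 at +8 down to 1.18 to 1.73 at +13.

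**Figure D2:**
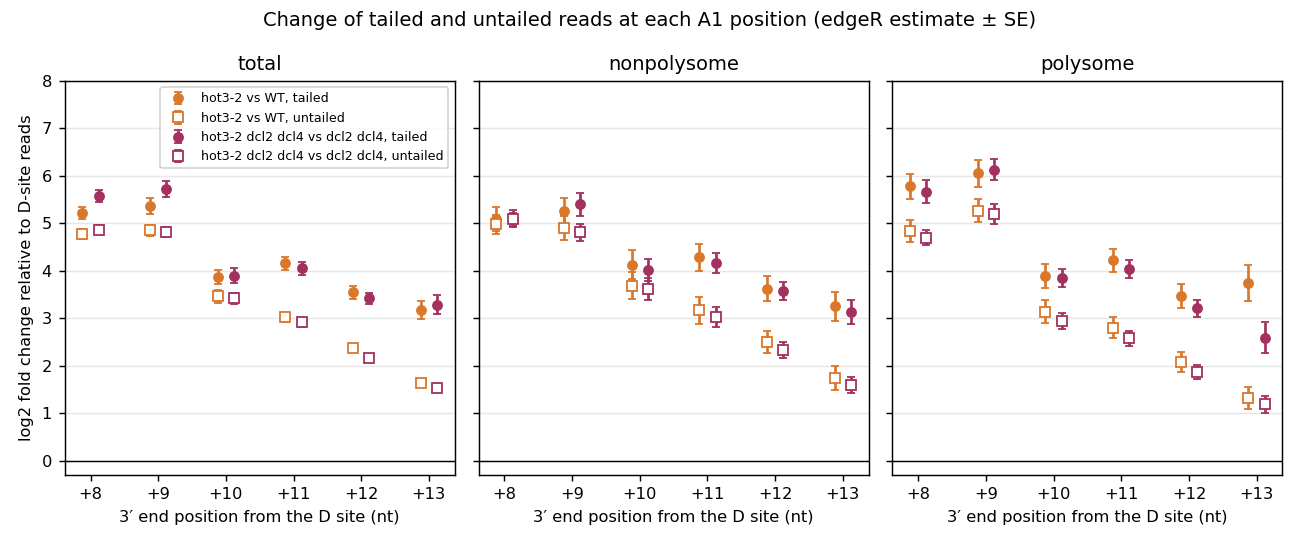
Log2 fold change of reads relative to D-site reads (edgeR estimate ± SE) at each A1 position, for hot3-2 against WT and hot3-2 dcl2 dcl4 against dcl2 dcl4, with tailed reads as filled circles and untailed reads as open squares. Both fall from +8 and +9 to +13, and the gap between them is widest at +11 to +13.

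The tailed share at each position shows where the tails sit. Within the window, the share in WT was highest at +10 and +11 and lowest at +13. In WT total, 14.2% ± 0.286 of reads at +8 carried a tail, 18.9% ± 2.64 at +9, 26.7% ± 1.36 at +10, 25.2% ± 0.728 at +11, 13.6% ± 1.14 at +12 and 0.629% ± 0.125 at +13 (SD, n = 4). In hot3-2 total the order within the window had one clear top, +11, where 42.4% ± 1.71 of reads were tailed. In hot3-2 polysome this was 51.3% ± 2.53, with the libraries between 48.6% and 54.5%. The neighbouring shares of +10 and +12 were 37.6% ± 2.86 and 27.6% ± 1.38, both separate from +11. Just outside the window, at +7, the share was 41.4% ± 5.08 in WT total and 46.7% ± 0.116 in hot3-2 total. In hot3-2 polysome the share at +7 was 51.3% ± 1.57, so +11 is the top of the window only.

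**Figure D3:**
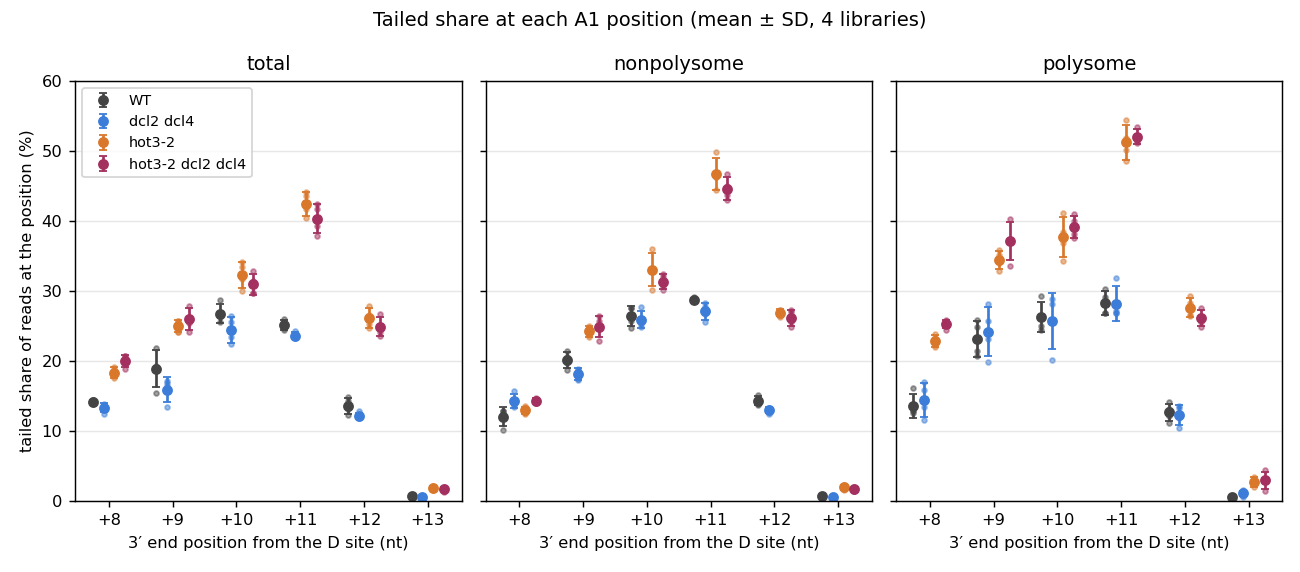
Tailed share of the reads at each A1 position (large points, mean ± SD of 4 libraries; small points, single libraries) in the 3 fractions. At +11 the hot3-2 mean is 42.4% (total), 46.7% (nonpolysome) or 51.3% (polysome). At +8 in nonpolysome all 4 genotype means lie between 12.03% and 14.3%.

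Shares were tested position by position (exact two-sided permutation test, Benjamini-Hochberg over the 30 positions of a comparison). In nonpolysome, 5 of the 6 A1 positions had a higher share in hot3-2 than in WT, beside 43.3% of all positions called higher, and 5 of 6 in the combined mutant against dcl2 dcl4, beside 53.3%. The exception was +8 in both. There the share was 12.9% ± 0.534 in hot3-2 and 12.03% ± 1.33 in WT (exact permutation p = 0.257), and 14.3% ± 0.373 in the combined mutant against 14.3% ± 1.01 in dcl2 dcl4 (exact permutation p = 0.971). The log2 fold change at +8 in this fraction was 5.09 for tailed and 4.98 for untailed reads of hot3-2 against WT. The largest rise was at +11. There the 4 WT libraries had 28.5%, 29.1%, 28.6% and 28.5% and the 4 hot3-2 libraries 44.4%, 46.3%, 46.3% and 49.8%, from 28.7% ± 0.304 to 46.7% ± 2.26 in hot3-2 (exact permutation p = 0.0286, adjusted p = 0.0476).

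In total extract the combined mutant was above dcl2 dcl4 at all 6 A1 positions (adjusted p = 0.0476 in the exact permutation test, beside 56.7% of all positions). For hot3-2 against WT none was called in total or in polysome, as 0% of all positions were. The 6 A1 positions nevertheless did not overlap between hot3-2 and WT in either fraction and had the smallest exact permutation p, 0.0286. In the higher direction 16 of the 30 positions reached that p in total and 14 in polysome, and the adjusted p was 0.0536 in both. In polysome +8 rose from 13.6% ± 1.71 to 22.9% ± 0.884, unlike in nonpolysome. For the combined mutant in polysome, 0% of positions were called as well, and 5 of the 6 A1 positions did not overlap (+13 did). In the higher direction 13 of all 30 positions reached the smallest exact permutation p there.

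The change between fractions was compared next. Tailed A1 ends were highest in nonpolysome and lowest in polysome in every genotype. The WT level was 0.0842% ± 0.00729 for total extract, 0.171% ± 0.0520 for nonpolysome and 0.0271% ± 0.00633 for polysome. For hot3-2 the same values were 1.43% ± 0.201, 2.96% ± 0.531 and 0.589% ± 0.0841 (SD, n = 4). Nonpolysome was above total by a log2 difference of 1.03 to 1.06 over the 4 genotypes. Polysome was below nonpolysome, with a log2 difference of -2.66 in WT and -2.33 in hot3-2. All 8 comparisons were without overlap (exact permutation p = 0.0286, adjusted p = 0.0286). The WT step from total to nonpolysome was 1.36 within replicates 1 and 3 and 0.60 within replicates 2 and 4. In each of the 4 genotypes, replicates 1 and 3 had a higher mean nonpolysome level than replicates 2 and 4.

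The tailed share ran differently from the level. In hot3-2 it was 27.1% ± 1.49 in total, 28.0% ± 1.22 in nonpolysome and 31.5% ± 1.46 in polysome, where the level was lowest. The polysome libraries of hot3-2 and of the combined mutant lay above their nonpolysome libraries without overlap, by 3.51 and 5.51 points. Neither passed the adjustment over 8 comparisons (exact permutation p = 0.0286, adjusted p = 0.0762). This test is unpaired, and the labels do not say whether fractions of the same number share an extract. Between libraries of the same number, polysome was higher in 4 of 4 pairs in both, by 3.14 to 3.95 and 4.57 to 6.21 points. It was higher in 2 of 4 pairs in WT and in 3 of 4 in dcl2 dcl4. In WT polysome was at 13.9% ± 0.731 and nonpolysome at 14.5% ± 0.332 (exact permutation p = 0.229). Counting only tails of 2 nt or more as tailed, the difference between polysome and nonpolysome was -0.290 points in hot3-2 (exact permutation p = 0.600) and 1.10 points in the combined mutant (exact permutation p = 0.371), with overlap in both. The same difference was -1.19 points in WT, without overlap (unadjusted exact permutation p = 0.0286). In dcl2 dcl4 the difference was -0.0194 points, with overlap (exact permutation p = 0.971).

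Composition of the tailed reads moved with the fraction as well. In hot3-2 nonpolysome, +8 and +9 held 6.35% ± 0.517 and 9.05% ± 0.117 of the tailed A1 reads, and +11 and +12 held 42.9% ± 1.06 and 31.9% ± 0.916. In hot3-2 polysome +8 and +9 held 17.9% ± 0.779 and 24.2% ± 1.21, and +11 and +12 held 30.9% ± 0.271 and 19.6% ± 0.495. In the combined mutant +9 held 28.3% ± 2.89 in polysome, about as much as +11 with 27.7% ± 1.21. In WT the pair held 3.33% ± 0.789 and 4.19% ± 0.556 in nonpolysome, against polysome values of 7.24% ± 1.34 and 7.87% ± 0.851. In dcl2 dcl4 it held 3.69% ± 0.443 and 3.98% ± 0.376 in nonpolysome, against polysome values of 8.19% ± 1.96 and 8.44% ± 0.867. In every genotype the 2 positions nearest the D site thus held more of the tailed reads in polysome than in nonpolysome, which is given as a description with no test of its own.

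Whether the effect of hot3-2 differed between fractions was tested by an interaction term in edgeR on the same table. For polysome against nonpolysome the effect on tailed reads was larger by 0.69 (SE 0.26) at +8 and by 0.79 (SE 0.30) at +9 on the log2 scale, with an edgeR adjusted p of 0.0738 for both. None of the 6 A1 positions was called, beside 13.6% of all features. For nonpolysome against total none was called either, beside 6.78% of features, with tailed differences between -0.13 and 0.26. Between the backgrounds with and without DCL2 and DCL4 none was called in any of the 3 fractions, as in 0% of features. At an unadjusted p under 0.05, tailed reads at +8 in total and at +13 in polysome passed in that comparison. Untailed reads at +12 in total passed as well. How many of all features passed this cut is not given here, so it is not read as particular to tailed A1 ends.

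Loss of DCL2 and DCL4 left tailed A1 ends near the level of the matching genotype. The log2 difference of the level lay between 0.03 and 0.12 over 6 comparisons, with overlap in each (exact permutation p from 0.400 to 0.857, adjusted p from 0.789 to 0.857). In total extract hot3-2 dcl2 dcl4 had 1.31%, 1.28%, 1.65% and 1.67%, beside 1.21% to 1.63% in hot3-2. The libraries of the 2 genotypes interleaved. The share differed by -1.38 to 0.890 points. The one comparison without overlap was dcl2 dcl4 against WT in nonpolysome, at 13.2% ± 0.533 and 14.5% ± 0.332 (exact permutation p = 0.0286, adjusted p = 0.171 over 6). Between libraries of the same number, the share was lower without DCL2 and DCL4 in 4 of 4 pairs in each of the 4 comparisons in total and nonpolysome. These differences lay between -1.93 and -0.362 points (exact sign-flip p = 0.125 in each, the smallest that 4 pairs allow). In polysome 1 of 4 pairs was lower for hot3-2 dcl2 dcl4 against hot3-2 and 2 of 4 for dcl2 dcl4 against WT.

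In the edgeR fits of these comparisons no tailed A1 position and no combination of position and tail length was called, as in 0% of features, except that 3.39% of the position features were called for hot3-2 dcl2 dcl4 against hot3-2 in polysome, none of them a tailed A1 position. In the test of single position shares 0% of positions were called too. That adjustment can pass only where most of the 30 positions reach the smallest exact permutation p, so nothing is concluded from it. At an unadjusted exact permutation p under 0.05, up to 4 of all 30 positions passed in 1 direction. At an unadjusted p under 0.05, edgeR had 1 tailed A1 position higher for hot3-2 dcl2 dcl4 against hot3-2 in total. It also had 1 higher for dcl2 dcl4 against WT in polysome. How many of all features passed that cut is not given here. DESeq2 with size factors from the D-site count called none, and with its own size factors it called 2, 1 and 1 for hot3-2 dcl2 dcl4 against hot3-2 in total, nonpolysome and polysome. The replicate block changed this. With the replicate number as a block, tailed reads at +8 and +9 were called higher in hot3-2 dcl2 dcl4 than in hot3-2 in all 3 fractions. At +8 the blocked log2 fold change was 0.30 (SE 0.03, edgeR adjusted p = 0.000204) in total, 0.29 (SE 0.03, adjusted p = 0.0260) in nonpolysome and 0.24 (SE 0.04, adjusted p = 0.0104) in polysome. At +9 it was 0.24, 0.18 and 0.27. In polysome +11 and +12 were called lower, with -0.11 and -0.17. Of the combinations of position and tail length, 13 were called with the block in total (12 higher), 5 in nonpolysome (5 higher) and 12 in polysome (8 higher). The fitted values were nearly the same without the block, 0.30 at +8 in total, where the adjusted p was 0.429. The 1 other blocked call was +13 in polysome, higher in dcl2 dcl4 than in WT by 1.25. Tailed +13 reads were scarce there, with means of 0.000517% and 0.000221% of D-site reads. For the blocked fit and DESeq2 with its own size factors, the share of all features called is not given here. Their counts are thus not read as particular to tailed A1 ends.

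Combinations of position and tail length were fitted in the same way on the whole table. Of the 60 tailed A1 combinations, 49, 53 and 42 reached 10 counts in at least 4 libraries for hot3-2 against WT in total, nonpolysome and polysome, and 50, 53 and 43 for the combined mutant against dcl2 dcl4. Those tested were all called higher, beside 86.9%, 89.7% and 79.5% of the whole table for hot3-2 and 85.8%, 87.7% and 83% for the combined mutant. Many of them passed the minimum only through the mutant and so had to be higher. Those with at least 10 reads in every control library numbered 23, 25 and 11 for hot3-2 and 19, 28 and 11 for the combined mutant. Their log2 fold changes lay between 1.58 and 6.13.

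Of the 30 combinations named by size of the fitted change (5 for each of 6 comparisons), 20 had fewer than 10 reads in at least 1 control library, so their order is not read as an order of positions. The end at +9 with 1 nt had 23 to 61 reads in the WT total libraries and 1496 to 2359 in hot3-2 (log2 fold change 5.78, SE 0.24, edgeR adjusted p = 3.52e-09). The following combinations reached the minimum count only through the mutant and so had to be higher, and they are given as reads only. The end at +9 with 2 nt had 3 to 20 reads in WT polysome and 949 to 1474 in hot3-2 polysome. The end at +8 with 8 nt had no reads in dcl2 dcl4 total and 10 to 31 in the combined mutant. The end at +13 with 4 nt in nonpolysome had 1 read over the 4 dcl2 dcl4 libraries and 21 to 36 in each library of the combined mutant.

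By level, other combinations led. In both hot3-2 genotypes +12 with 2 nt (0.492% ± 0.0708 of D-site reads in hot3-2 nonpolysome), +12 with 1 nt (0.397% ± 0.0648) and +11 with 4 nt (0.340% ± 0.0673) were the 3 highest in total and nonpolysome. In WT +12 with 1 nt came first in all fractions. In hot3-2 polysome the order was +8 with 1 nt (0.0659% ± 0.00845), +9 with 1 nt (0.0626% ± 0.00778) and +12 with 1 nt (0.0538% ± 0.00758), the pair at +8 and +9 lying within each other's spread.

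Tail lengths were short. In WT total 90.7% ± 0.833 of tailed A1 reads had tails of 1 to 4 nt, and in hot3-2 total 90.1% ± 1.38. The mean tail length was 2.46 nt ± 0.0780 in WT total and 2.56 nt ± 0.107 in hot3-2 total, 2.52 nt ± 0.116 and 2.64 nt ± 0.0945 in nonpolysome, and 2.50 nt ± 0.0652 and 2.40 nt ± 0.0761 in polysome (SD, n = 4). The groups overlapped in each fraction, and none of the 6 comparisons of a HOT3 mutant with its control passed (exact permutation p from 0.0571 to 0.200, adjusted p from 0.171 to 0.200). Library by library of the same number, hot3-2 was above WT in 4 of 4 in total and nonpolysome and in 0 of 4 in polysome.

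The class of 10 nt, which may hold longer tails too, weighs on these means. It took 4.18% ± 0.918 of tailed A1 reads in WT polysome and 1.88% ± 0.409 in hot3-2 polysome. Without this class, mean lengths were longer in hot3-2 than in WT by 0.14 nt in total, 0.15 nt in nonpolysome and 0.09 nt in polysome, each without overlap (exact permutation p = 0.0286, adjusted p = 0.0343). The direction in polysome turned with this choice.

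Mean tail length also moved with the replicate number. In 11 of the 12 groups both libraries of replicates 3 and 4 had longer tails than both of replicates 1 and 2, by 0.0901 to 0.181 nt over all groups, which is about as large as the difference between genotypes. Within replicates 1 and 2 and within replicates 3 and 4, all 6 comparisons of a HOT3 mutant with its control kept their sign.

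**Figure D4:**
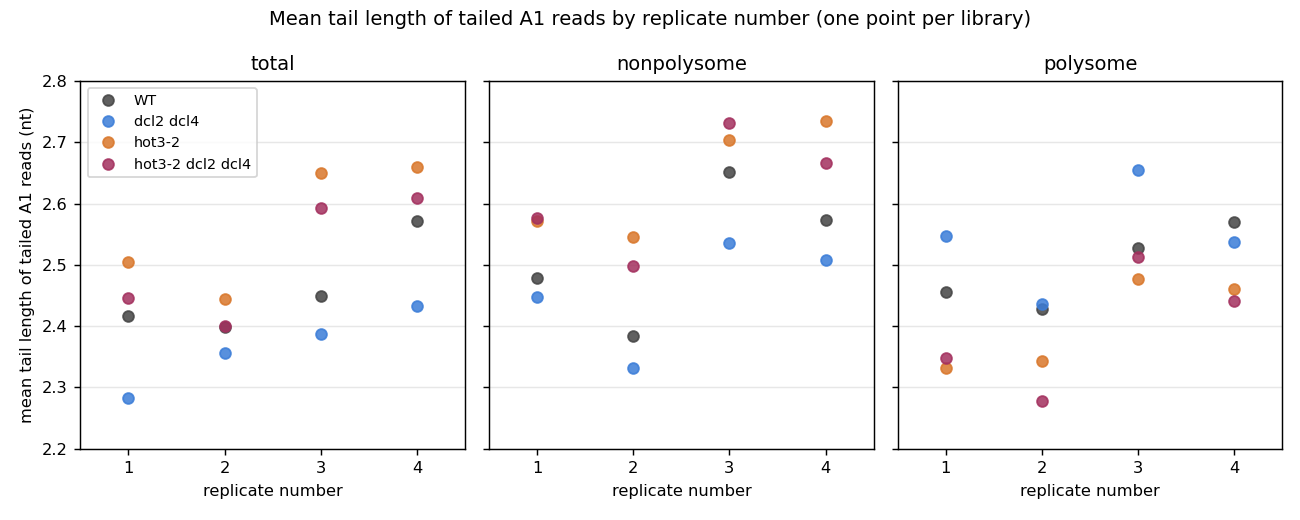
Mean tail length of tailed A1 reads (nt) against replicate number, 1 point per library, in the 3 fractions. Replicates 3 and 4 lie above replicates 1 and 2 in nearly every group, and hot3-2 is above WT of the same number in total and nonpolysome and below it in polysome.

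Each A1 position had a tail-length profile of its own. In hot3-2 nonpolysome 62.1% ± 1.32 of tails at +8 and 39.8% ± 1.48 at +9 were 1 nt long, and each further nucleotide up to 9 nt was rarer. At +12, tails of 1 nt and 2 nt made up 42.2% ± 0.996 and 52.4% ± 0.808. At +11, tails of 1 to 4 nt went from 13.8% ± 0.870 to 26.8% ± 1.12, and tails of 5 nt were at 4.19% ± 0.343. The 10 nt class at +9 differed between genotypes, with 17.6% ± 4.94 in WT nonpolysome and 4.57% ± 0.910 in hot3-2 nonpolysome.

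At the positions nearest the D site, mean tail length lay below the controls in the HOT3 mutants by value, unlike the mean over all A1 ends in total and nonpolysome, and no position passed the adjusted test. At +9 the mean tail was 3.87 nt ± 0.768 in WT total and 2.50 nt ± 0.135 in hot3-2 total, and 4.13 nt ± 0.454 and 2.62 nt ± 0.103 in nonpolysome. The WT nonpolysome libraries lay between 3.57 and 4.59 nt and the hot3-2 libraries between 2.51 and 2.72 nt. The groups did not overlap at +9 in 6 of the 6 comparisons of a HOT3 mutant with its control, with differences of -1.51 to -0.819 nt. At +8 the mutant mean was lower in 6 of 6 comparisons and without overlap in 3, for example 2.42 nt ± 0.264 in WT and 1.83 nt ± 0.0508 in hot3-2 nonpolysome. At +12 the mutant libraries were above the controls without overlap in 5 of 6. Over all positions tested in a comparison, 5 to 8 were lower and 1 to 4 higher at an unadjusted exact permutation p under 0.05. These values stayed above the threshold after adjustment over the 24 to 30 positions of a comparison (lowest exact permutation p = 0.0286, lowest adjusted p = 0.0753). Of all positions, 0% were called. That adjustment can pass only where most positions of a comparison reach the smallest p, so it could not call a few separate ones. Without the 10 nt class the differences at +9 were -0.638 to -0.00944 nt, without overlap in 3 of 6 comparisons.

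Steps in these profiles stood at the lengths computed from the template. At +12 the reads with 3 nt were 3.19% to 9.11% of those with 2 nt over the 12 groups, and this was the steepest fall in 10 of 12 groups. At +11 the reads with 5 nt were 14.7% to 23.9% of those with 4 nt, the steepest fall in 12 of 12 groups. At +10 the reads with 7 nt were 9.43% to 33.3% of those with 6 nt, the steepest in 11 of 12. No such step was computed for +8 and +9. How much of the length profile, and of the share at +10 to +13, follows from this reading of tails as template was not tested. All libraries were read in the same way, but whether the loss of tails to template differed between genotypes was not tested.

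**Figure D5:**
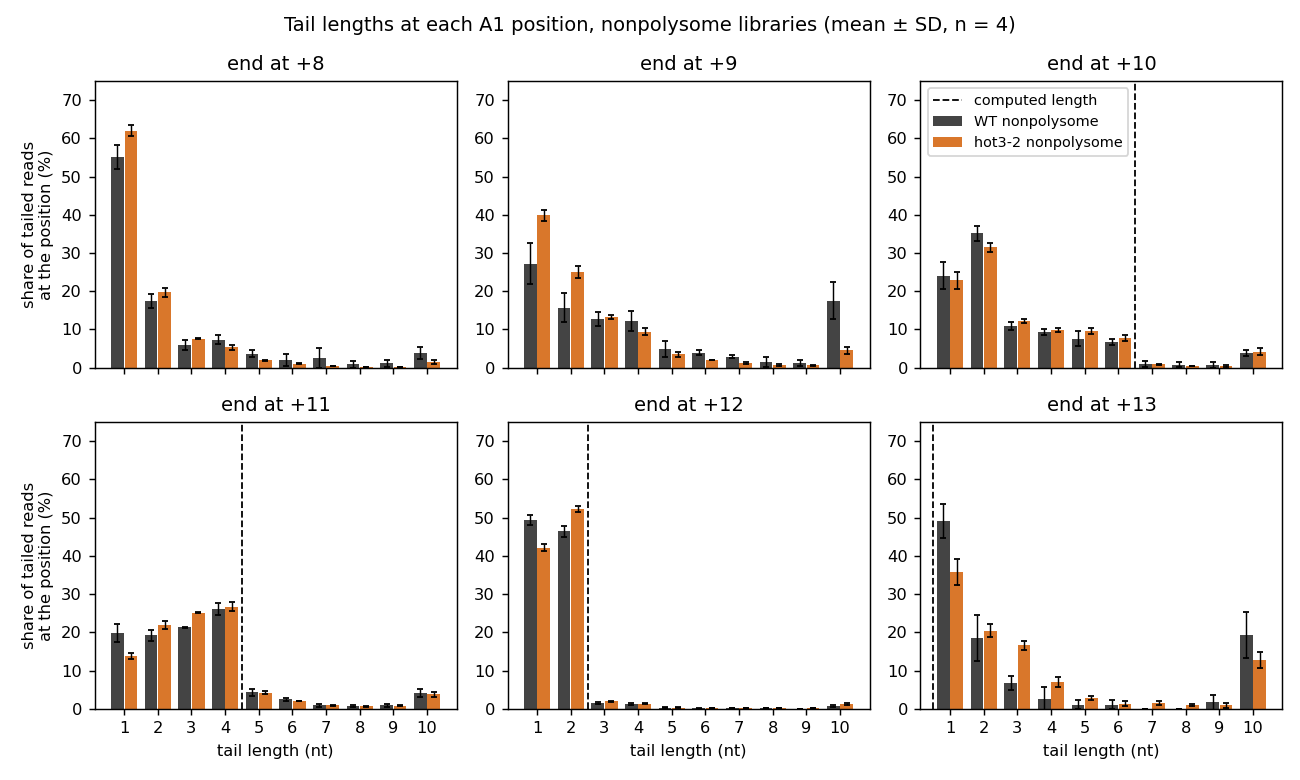
Share of the tailed reads at each A1 position by tail length in nt (mean ± SD, n = 4) in WT and hot3-2 nonpolysome libraries, with a dashed line where a tail of A would begin to be read as template. At +10, +11 and +12 the bars drop to the right of the line, at 7, 5 and 3 nt.

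A1 ends were last set beside the ends further downstream, within each library. Over the 16 libraries of total extract the A1 share was on average 25.8 points below that of A2 ends (+21 and +22) and 19.5 points below that of the ends between them (+14 to +20). It was lower than both in 16 of 16 libraries in each fraction (exact two-sided sign-flip test within libraries, p = 3.05e-05, adjusted p = 3.05e-05, the smallest this design allows). Mean tails in total extract were 2.47 nt at A1, 3.33 nt between A1 and A2 and 4.91 nt at A2, with A1 below each of the others in 16 of 16 libraries of each fraction (exact sign-flip p = 3.05e-05, adjusted p = 3.05e-05). The pooled ends from +14 to +20 were uneven. In total extract a tail was carried by 71.2% of reads at +17, above the A1 share in 16 of 16 libraries. At +14 the mean was 7.99% and at +18 it was 6.54%, both below the A1 share (mean 19.9%) in 16 of 16 libraries of each fraction. The other positions lay on both sides of the A1 share. The lower share of A1 ends thus holds against the pooled ends and +17, and not against each position. A tail of A behind +10 to +13 that is read as template would be counted at an end from +14 to +17. This takes tailed reads from A1 and adds reads to the ends between A1 and A2. How much of the lower share and shorter tails of A1 ends follows from it was not tested.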

How the data were processed

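The deposited files gave, per library, counts of reads for each 3′ end position of 18S rRNA and tail length (0 to 10 nt). According to the labels and the methods, the authors trimmed paired-end reads with cutadapt (4.2 in the submitters' processing notes), mapped them with STAR (2.7.10b in those notes) to their own 45S rDNA reference, kept reads with a mature 5′ end and counted 3′ ends with an in-house script. A base that matches the template counts as template, so tails of A before template A are read short, and whether the class of 10 nt holds longer tails is not stated.

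From these counts the level (tailed reads per 100 untailed D-site reads), the tailed share and the mean tail length were computed for each of 48 libraries in 12 groups of 4. Groups were compared with exact two-sided permutation tests (smallest p = 0.0286 for 4 against 4) and Benjamini-Hochberg adjustment within each family of 6 or 8 comparisons. Counts were fitted with edgeR 4.0.16 (R 4.3.3, quasi-likelihood test, D-site count as library size, features with 10 counts in at least 4 libraries), over all features. DESeq2 1.42.0, TMM scaling, no filter, other denominators, windows and tail classes, a replicate block and leaving out each library were alternatives. Comparisons within replicates 1 and 2 and within replicates 3 and 4, A1 against its neighbours with +8 to +12, and mean tail length by position, were added after seeing the data.

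The A1 ends and all lists were chosen with earlier results of these data known. All 6 A1 positions are named, with up to 5 called combinations of largest fold change per genotype comparison and the 3 of highest level per group. On simulated counts (142 features, drawn at the WT total levels) 40 of 40 changed features were called and 3 unchanged ones. Replicates of the same number come from the labels, which do not say that the number marks a shared batch. Deviations of same-numbered libraries correlated by -0.17 to 0.86 over 78 features, with every pair above 0.1 in 16 of 20 comparisons. Over the tailed A1 counts 8 of 72 pairs of libraries of a group did not differ beyond counting noise, but all 72 differed over the whole table, so each library was counted as 1 sample.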

Additional observations from a re-analysis of the deposited data

Results flagged for a closer look

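In 3 of the 108 groups of 4 libraries checked, 1 library stood far from the other 3. Chance flags about 1 in 20 such groups. The tailed share at +8 was 16.2% in 1 WT polysome library and 12.5% to 12.96% in the others. The tailed share at +11 was 29.1% in 1 WT nonpolysome library and 28.5% to 28.6% in the others. The tailed share at +11 was 31.9% in 1 dcl2 dcl4 polysome library and 26.8% to 27.1% in the others.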

How the results depend on the processing

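Tailed A1 levels and shares kept their direction for loss of HOT3 under every alternative run, and level comparisons were unchanged in call with the other denominators, with +8 to +12 and without a filter. Scaling to the whole table in place of the D site shifted all log2 fold changes by -2.78 to -1.82 (TMM) and by -3.15 to -1.997 (DESeq2's own size factors). The lowest position value then was 0.47 and 0.10. Called higher were then, with TMM, 32 A1 combinations for hot3-2 against WT in total and 28 in nonpolysome, and 30 for the combined mutant in nonpolysome. DESeq2 with its own size factors called 28 and 25 for hot3-2 and 30 and 27 for the combined mutant in total and nonpolysome, and +13 lost its call in 3 comparisons. For hot3-2 dcl2 dcl4 against hot3-2, A1 positions called were 1 (TMM) and 2 (DESeq2) in total, 1 (DESeq2) in nonpolysome, and 1 (TMM) and 1 (DESeq2) in polysome. With the replicate block they were 2, 2 and 4, and 1 for dcl2 dcl4 against WT in polysome, and combinations called were 13, 5 and 12. Shares of all features called under these alternatives are not given here, so none of these counts is read as particular to A1. The block changed no other edgeR call of a tailed A1 position or count of combinations by over 1.5 times. With 4 pairs the sign-flip test of levels, shares and lengths cannot go below an exact p of 0.125.

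Leaving out 1 library gave 31 to 50 combinations higher for the combined mutant in total, 35 to 53 for hot3-2 in nonpolysome, and in polysome 23 to 42 for hot3-2 and 18 to 43 for the combined mutant. The lowest value came with each of the 4 mutant libraries left out. The low values come from the filter, since 3 mutant libraries cannot fill 4.

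Within replicates 1 and 2 and within replicates 3 and 4, chosen after seeing the data, the combined mutant against dcl2 dcl4 in polysome was at 4.08 and 4.67 (log2 level) and 16.99 and 20.1 points, in total at 12.6 and 15.3 points, and hot3-2 against WT in polysome at 15.7 and 19.4 points. Polysome against nonpolysome was at -2.39 and -2.87 (dcl2 dcl4, level) and 0.284 and -1.49 points (WT), and nonpolysome against total at 0.227 and 1.18 points (dcl2 dcl4). Within replicates 1 and 3 and within 2 and 4, WT levels were at 1.36 and 0.60 (nonpolysome against total) and -3.30 and -1.98 (polysome against nonpolysome), and dcl2 dcl4 at -2.90 and -2.35. Within 2 and 4, hot3-2 was at -2.08 and the combined mutant at -2.04.

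Directions that turned were all of uncalled values. With tails of 2 nt or more, the polysome share less the nonpolysome share was -0.290 (hot3-2) and -0.0194 points (dcl2 dcl4). With a plain mean of the 6 position shares, dcl2 dcl4 less WT in polysome was 0.225, polysome less nonpolysome in WT 0.377, and nonpolysome less total -0.0356 (hot3-2) and -0.140 (combined). Without the class of 10 nt, the mean length rose with loss of HOT3 by 0.138 (hot3-2) and 0.188 nt (combined) in total and by 0.147 and 0.216 nt in nonpolysome (exact permutation test, adjusted p = 0.0343), and was 0.0896 (adjusted p = 0.0343) and 0.0955 nt (adjusted p = 0.0571) higher in polysome. It was -0.0117 nt for dcl2 dcl4 against WT in polysome and -0.0317 nt for polysome against nonpolysome in dcl2 dcl4. The cause was not tested. Mean tails at +8 in the combined mutant against dcl2 dcl4, added after seeing the data, turned without the class of 10 nt to 0.0466 nt in total and 0.0304 nt in polysome. The polysome libraries of WT and dcl2 dcl4 had 477 to 1443 tailed A1 reads, fewer than any other library, which limits their single combinations most.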
